A study of Homo sapiens with 6 samples.

Results

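The zinc finger genes of human chromosome 19 were compared between 3 libraries from THP-1, a monocytic leukaemia cell line, to which recombinant human RBP4 was added (retinol-binding protein, which carries vitamin A in blood) and 3 libraries from THP-1 alone, the control. The members are the protein-coding genes of chromosome 19 whose name is ZNF followed by a number and whose value was 10 or more in at least 3 of the 6 libraries. Of 28847 genes in the deposited table, 232 matched the name and the chromosome, and 186 of these passed the level. The members were thus chosen by name, position and measured level. The values are gene read counts that the authors divided by 1 size factor per library, called normalized reads here. The cells stand for M0 (not yet polarized) macrophages in the series, and the labels give neither a dose nor a time. Nothing in the labels says that the 3 libraries of a group came from separate cultures, so the p-values measure only the spread between these libraries, which may be technical.

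C2H2 zinc finger proteins bind DNA through a row of small finger modules, each folded around a zinc ion held by a pair of cysteines and a pair of histidines. Many also carry a KRAB domain, which recruits the corepressor TRIM28 (KAP1) and, through it, the histone methyltransferase SETDB1 and heterochromatin proteins. Such proteins are best known for holding transposable elements silent. Their genes multiplied by tandem duplication, and chromosome 19 holds several dense clusters of them.

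The modular build shows in the coding sequences. Translated from GENCODE 29, the members encoded a median of 12 finger motifs (range 0 to 36), and 152 of 186 held a KRAB letter pattern. A missed pattern does not show that the domain is absent. The first finger that a conserved linker follows is printed below for 2 members with a large rise, ZNF528 and ZNF347, and for the 2 members with the largest falls, ZNF160 and ZNF175. Each is 78 bases of coding sequence, 5′ to 3′. The capitals mark the 4 codons of the cysteines (TGT or TGC) and histidines (CAT or CAC) that hold the zinc. On GRCh38 they lie in ZNF528 at chr19:52415495-52415572 on the plus strand, in ZNF347 at chr19:53141796-53141873 on the minus strand, in ZNF160 at chr19:53069682-53069759 on the minus strand and in ZNF175 at chr19:51587676-51587753 on the plus strand.
ZNF528: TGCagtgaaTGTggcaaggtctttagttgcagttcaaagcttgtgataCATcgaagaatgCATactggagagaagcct
ZNF347: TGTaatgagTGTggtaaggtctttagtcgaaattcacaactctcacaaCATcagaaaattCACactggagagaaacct
ZNF160: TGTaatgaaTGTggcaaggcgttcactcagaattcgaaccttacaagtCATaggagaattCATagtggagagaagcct
ZNF175: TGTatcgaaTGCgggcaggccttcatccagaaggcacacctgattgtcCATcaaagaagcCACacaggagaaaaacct
The 4 zinc-holding codons stand at the same places in all 4 sequences because the search required that spacing. The bases between them, which include the codons of the residues that touch DNA, differ. Likeness between the genes also bears on counting. Of all 64-base stretches in a member's transcripts, a median of 3.04% also occurred in a transcript of another gene, with over 20% in 19 members, whose values are therefore uncertain, and under 5% in 115.

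The libraries held 15202000 to 16420517 reads recovered from the deposited values. A gene with no read could still have had up to 3 reads, or 2.83 to 3.21 normalized reads. Of 22 monocyte and macrophage markers, 19 were analysed and 4 reached 10 CPM (reads scaled to a common library total) in all 6 libraries, against 19 of 24 erythroid markers, which goes against the label of a monocytic line. CD14, a defining monocyte receptor, stood at 1.39 ± 0.647 normalized reads in the control libraries (mean ± SD, n = 3) and was listed at 0 in all 3 RBP4 libraries, too low to be tested. Other genes of that list were well expressed, with FCGR2A at 1702 ± 57.5, CD33 at 856 ± 68.8 and SPI1 at 638 ± 9.52 in the control libraries. Of the 9 monocyte markers tested, 3 rose (ITGAM, LYZ and SPI1), 2 fell (CD33 and FCGR2A) and 4 did not pass. Of all genes tested, 24.5% rose and 26.1% fell. The summed level of the marker lists lay between 229 and 236 (control) and 235 and 248 CPM (RBP4) for the monocyte list, and between 3430 and 3460 and between 3100 and 3160 for the erythroid list. The share of mitochondrially encoded reads was 5.90% to 6.10% in the control and 7.58% to 7.69% in the RBP4 libraries. The part of these differences in the results was not tested.

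Most of the chromosome 19 ZNF genes that changed were higher in the RBP4 libraries. Of the 186 members, 96 rose (51.6%), 8 fell (4.3%) and 82 did not pass limma's moderated test at a Benjamini-Hochberg adjusted p under 0.05, while 24.5% of all 15676 genes tested rose and 26.1% fell, which makes 50.6% called in either direction. The median log2 fold change on the log2(value + 1) scale was 0.32 for the members and -0.002 for all genes tested, and it was above 0 in 147 members (79.0%) and in 49.8% of all genes tested. The rises ran from 0.12 to 2.86 with a median of 0.60, and the falls from -0.54 to -0.24 with a median of -0.35. At least a 2-fold rise was found for 20 of the 186 members, and for 4.44% of all genes tested, and a 2-fold fall for 0 members, against 1.45%. Of the 20 that rose so far, 15 were among the 47 members of lowest mean level and 5 among the next 46. At those levels, 335 of 1858 and 63 of 903 other protein-coding genes also rose at least 2-fold. Of the members that reached 10 in all 6 libraries, 11 rose at least 2-fold. With the libraries scaled to the same total instead, 111 members rose (59.7%) and 8 fell, while 30.8% of all genes tested rose. Of all genes called, 61.7% were then rises, against 48.4% in the main fit. The groups did not overlap for 100 members that were higher with RBP4 (27.3% of all genes tested) and for 17 that were lower (28.9%). In bulk RNA, more cells of a kind and more RNA per cell cannot be told apart.

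The members as a sum were also higher. Together they held 0.272% of all reads in each control library and 0.308% to 0.313% in the RBP4 libraries, or 44057 to 44307 against 47707 to 48383 normalized reads, with no overlap between the groups. The rule took the level in any 3 libraries, so 4 members (ZNF229, ZNF234, ZNF264 and ZNF528) passed it only through the RBP4 libraries and had to differ. In these 4 no control library reached 10. Members with some control libraries under 10 can lean on the RBP4 libraries as well. ZNF69 is an example, with 10.3, 8.05 and 8.57 normalized reads in the control libraries and 21.3, 18.9 and 23.8 in the RBP4 libraries. Among the 171 members that reached 10 in all 6 libraries, 86 rose and 8 fell (median 0.30). The 46 genes left out averaged 0.315 to 9.61 normalized reads. Just outside the rule, ZNF404 had 9.44 in the library that decides the rule, its highest but 2, and ZNF564 9.06, and just inside it ZNF433 had 11.6 and ZNF878 13.5. In the authors' deposited table, 69 members rose and 7 fell at an adjusted p under 0.05, against 17.0% and 20.3% of all genes tested, and all 76 were also called here in the same direction.

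**Figure D1:**
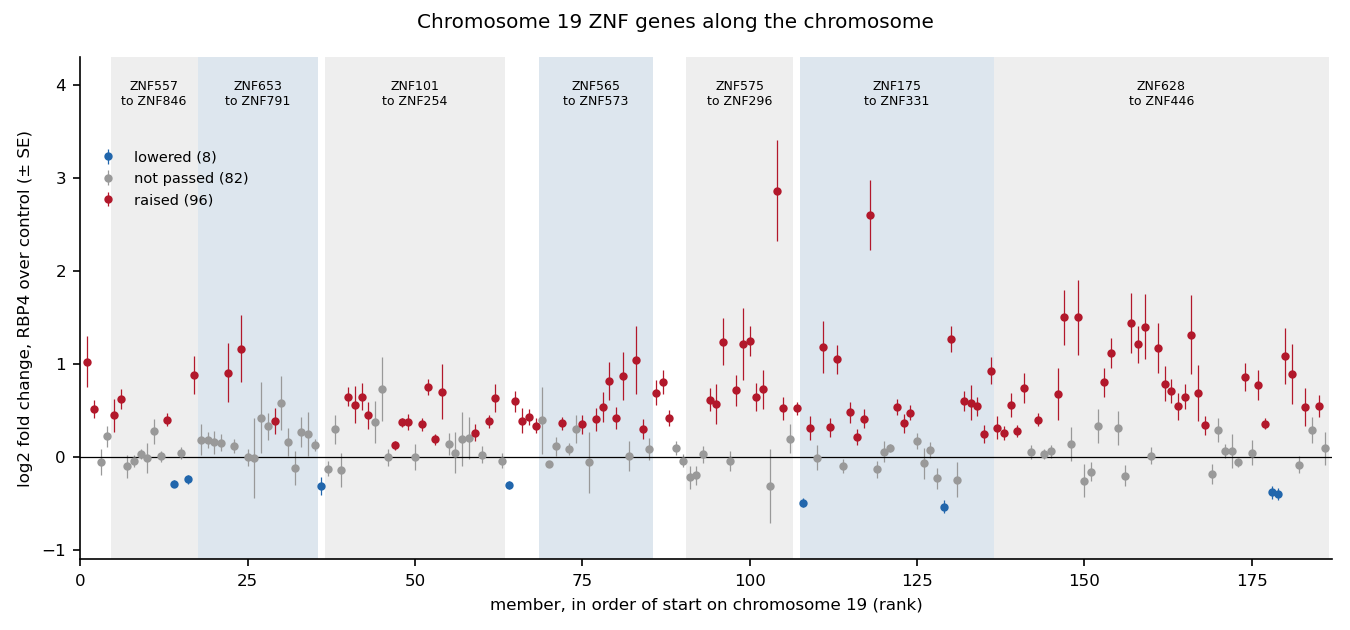
The log2 fold change (RBP4 over control, y axis, error bars are SE) of the 186 members is plotted by their rank along chromosome 19 (x axis), with shading for 7 clusters. Raised members (96, red) stand in every cluster, and the 8 lowered members (blue) are scattered among them.

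Zinc finger genes elsewhere in the genome moved less far to the same side. Of 218 tested ZNF genes on other chromosomes, 88 rose (40.4%) and 40 fell (18.3%), with a median log2 fold change of 0.12. Of 770 other protein-coding genes of chromosome 19, 257 rose (33.4%) and 173 fell (22.5%), with a median of 0.06. These sets differ in level, with medians of 136 normalized reads for the members, 305 for the ZNF genes elsewhere and 494 for the other chromosome 19 genes. Whether the members differ from these sets was not tested. Of a list of 20 other zinc finger genes of chromosome 19 named without the ZNF prefix and a number, 13 were analysed and 7 tested, of which 2 rose, none fell and 5 did not pass. Of all genes tested, 24.5% rose and 26.1% fell. The 5 were ZBTB7A, ZSCAN5A, ZSCAN22, MZF1 and ZFP30, with log2 fold changes of 0.12, 0.22, 0.22, 0.06 and -0.115. The 2 that rose are described because they rose. ZFP14, a KRAB zinc finger gene, went from 59.3 ± 11.1 to 103 ± 12.5 normalized reads (adjusted p = 4.1e-05, limma), and ZBTB45, a BTB zinc finger gene, from 202 ± 35.1 to 323 ± 15.1 (adjusted p = 2.9e-08, limma).

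The members were expressed at low levels, and level moved with the change. Their median was 136 normalized reads over the 6 libraries, against 530 for all protein-coding genes tested, and 27.6 against 99.8 per kilobase of gene length. The 96 raised members had a median level of 120, and the 8 lowered members one of 739. Over the 186 members, Spearman's rho between the log2 fold change and the mean level was -0.50, and over the 12230 protein-coding genes tested it was -0.40. Both are descriptions across genes that share the same 6 libraries. Of the 9 members above 1000 normalized reads, 2 rose and 4 fell.

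Set beside other protein-coding genes of about the same level, more of the members rose. Among the 47 members averaging 10.3 to 66.0 normalized reads, 27 rose (57.4%) and 0 fell, against 33.0% and 5.54% of 1858 other genes, with medians of 0.69 and 0.37. These 27 include the 4 members that passed the level only through the RBP4 libraries and had to differ. The other genes were taken by the same level rule, and how many entered in that way is not given here. Among the 46 members of 67.5 to 135 normalized reads, 28 rose (60.9%) and 0 fell, against 37.3% and 9.3% of 903 other genes, with medians of 0.53 and 0.22. Among the 46 members of 138 to 285 normalized reads, 23 rose (50%) and 1 fell (2.17%), against 37.0% and 11.4% of 1453 other genes, with medians of 0.23 and 0.12. Among the 47 members of 296 to 2680 normalized reads, 18 rose (38.3%) and 7 fell (14.9%), against 21.3% and 41.3% of 7830 other genes, with medians of 0.10 and -0.07. That last set of other genes reached far higher levels than the members, with a median of 956 against 471. The share raised was higher among the members in each of the 4 level classes, and the difference was not tested.

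**Figure D2:**
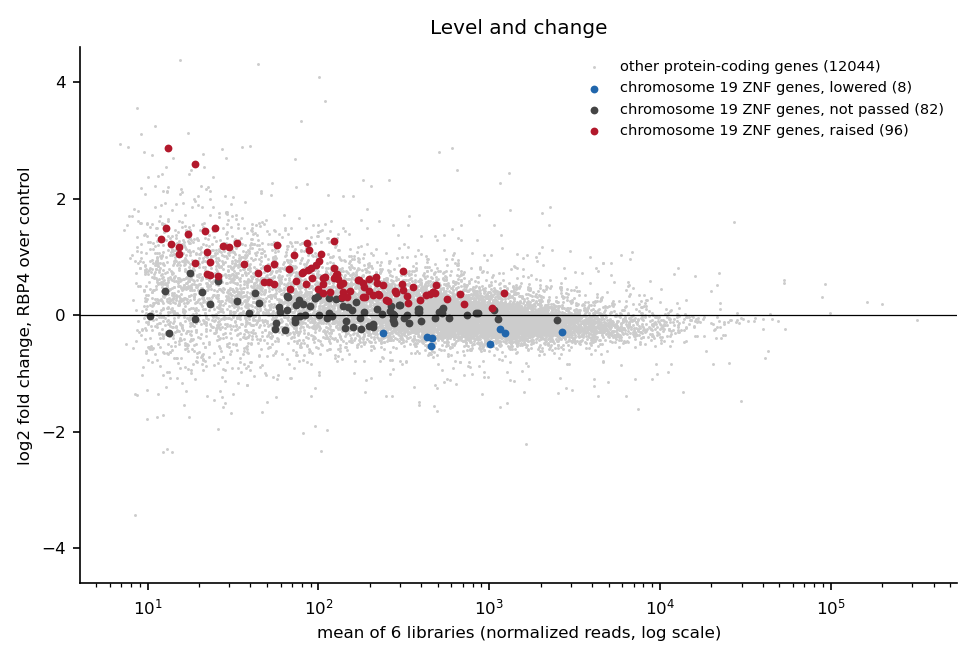
The log2 fold change (y axis) is plotted against the mean of the 6 libraries in normalized reads (x axis, log scale) for the other protein-coding genes tested (grey) and for the members (raised red, lowered blue, not passed dark grey). Raised members lie mostly at low levels, where grey points also lie above 0 more often than below.

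**Figure D3:**
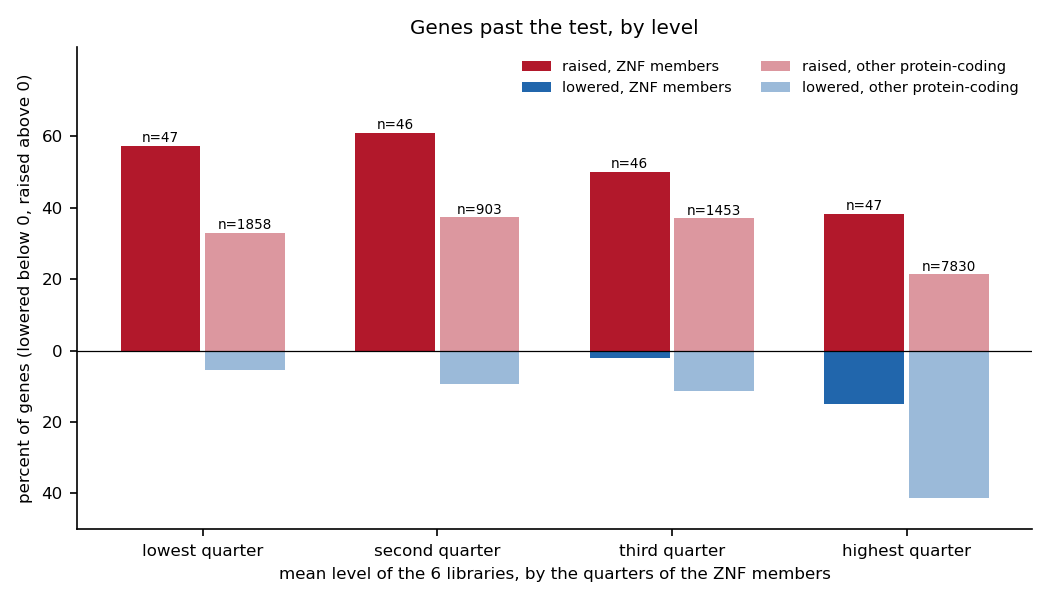
Bars give the percent of genes raised (above 0) and lowered (below 0) in 4 classes of mean level set by the members, for the members (full colour) and other protein-coding genes (pale), with the number of genes above each bar. The members' raised share is 57.4%, 60.9%, 50% and 38.3% from the lowest to the highest class, against 33.0%, 37.3%, 37.0% and 21.3%. The lowest class holds the 4 members that passed the level only through the RBP4 libraries.

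The largest rises among members with enough reads were close to 2.5-fold. ZNF347 had 69.3, 77.5 and 66.4 normalized reads in the control libraries and 148, 162 and 213 in the RBP4 libraries. That is a 2.45-fold rise (ENSG00000197937, chromosome 19, 53124072 to 53159075; log2 fold change 1.27, SE 0.14, adjusted p = 7.2e-12, limma). ZNF226 had 58.0, 42.3 and 52.5 against 121, 122 and 120 normalized reads, a 2.38-fold rise (44165073 to 44178381; adjusted p = 1.1e-09, limma), with a narrow spread among its RBP4 libraries (SD 0.818). ZNF419, splice variants of which give a minor histocompatibility antigen, had 37.3, 28.2 and 37.5 against 72.5, 75.5 and 93.5 (2.35-fold, adjusted p = 3.5e-07). No control value of these 3 genes reached the lowest RBP4 value, which the rule for named genes required. ZNF548 rose 2.20-fold to 122 ± 17.3, ZNF432 2.05-fold to 138 ± 10.5, ZNF813 1.91-fold to 133 ± 4.4 and ZNF846 1.90-fold to 71.6 ± 18.8 normalized reads (adjusted p between 1.6e-08 and 0.00017, limma). ZNF554 had 56.9, 65.4 and 25.7 against 95.7, 102 and 85.8, and control library 3 was under the other two (1.92-fold, log2 fold change 1.02, adjusted p = 0.0079, limma). Without that library its log2 fold change was 0.62.

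Larger ratios came from members near the lower limit, which the rule for named genes did not take and which were chosen after their values were seen. ZNF528 had 7.24, 3.02 and 4.28 normalized reads in the control libraries and 30.0, 32.1 and 37.2 in the RBP4 libraries, a 6.82-fold rise (log2 fold change 2.60, SE 0.38, adjusted p = 2.5e-08, limma). ZNF229 had 3.11, 7.04 and 0 against 18.4, 19.8 and 30.5, a 6.77-fold rise with a wider error (SE 0.54, adjusted p = 2.1e-05, limma). Both entered the comparison only through their RBP4 libraries, so their difference was fixed in part by the rule.

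The groups did not overlap in any of the 8 members that fell, which are all that passed the test, and none fell as much as 1.5-fold. ZNF160, reported to repress TLR4 transcription, had 581, 513 and 529 normalized reads in the control libraries and 368, 411 and 341 in the RBP4 libraries. That is a 1.45-fold fall (53066606 to 53103436; log2 fold change -0.54, SE 0.072, adjusted p = 3.1e-09, limma). ZNF175, also known as OTK18 and described as a repressor of HIV transcription in macrophages, had 1191, 1193 and 1174 against 864, 795 and 871, a 1.41-fold fall (51571298 to 51592508; adjusted p = 2.1e-13, limma). The spread of ZNF175 within a group (SD 10.8 and 42.0 normalized reads) was far less than the gap between the groups. ZNF8 fell 1.32-fold to 399 ± 9.69 and its neighbour ZNF544 1.30-fold to 376 ± 26.3 normalized reads. ZNF507 fell 1.23-fold to 1101 ± 33.6, ZNF121 1.22-fold to 2417 ± 67.0, and ZNF562, which lies close to ZNF121, 1.18-fold to 1058 ± 31.4. ZNF8 is among the 19 members with over 20% of shared stretches, and ZNF544 and ZNF562 each overlap a gene on the opposite strand. ZNF333 fell 1.24-fold from 264 ± 22.4 to 213 ± 18.1 (adjusted p = 0.0056), a call lost without control library 2 (adjusted p = 0.062), when RBP4 library 1 was left out (0.061) and by DESeq2 (0.056); its adjusted p ran from 0.0043 to 0.062 over all alternatives tried. ZNF333 overlaps ADGRE2 on the opposite strand, which had 468 normalized reads, and the library kit does not mark the strand.

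**Figure D4:**
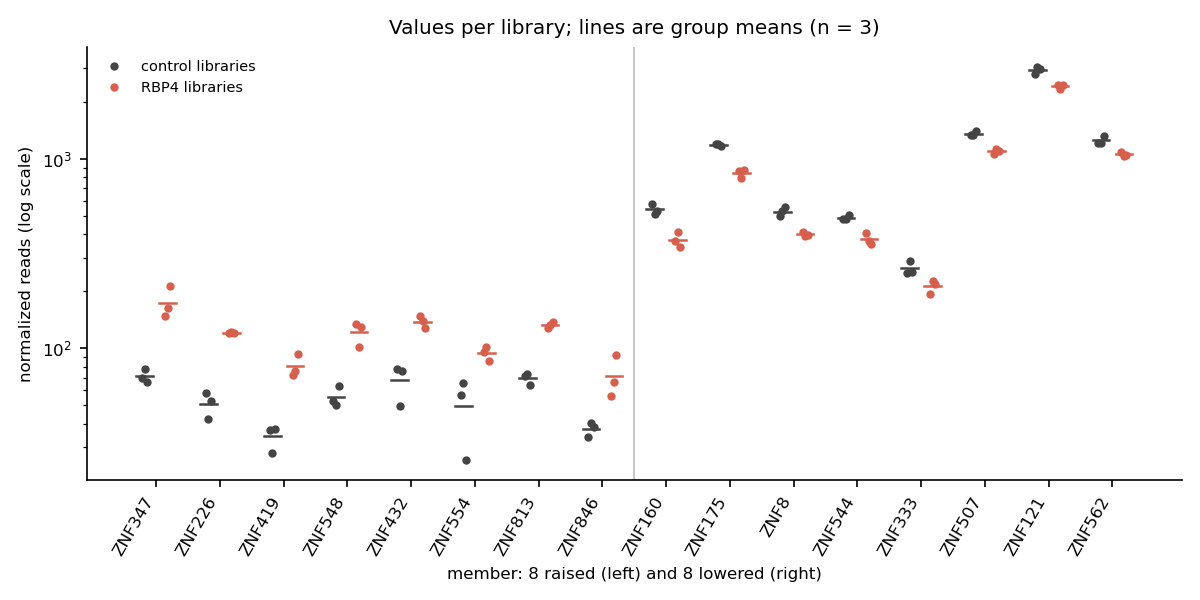
Normalized reads per library (y axis, log scale; points are libraries, lines are group means, n = 3) are shown for the 8 named raised members (left) and the 8 lowered members (right). In all 16 genes the control (dark) and RBP4 (red) points do not overlap, as the choice of these genes required, and the lowered members lie at higher levels than the raised ones.

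Members with a described role moved in different ways. ZNF274, which brings SETDB1 to the 3′ ends of zinc finger genes themselves, had 610, 585 and 591 normalized reads in the control libraries and 778, 744 and 763 in the RBP4 libraries, a 1.28-fold rise (adjusted p = 3.1e-07, limma). ZNF473 (ZFP100), a part of the machinery that processes histone transcripts, rose 1.43-fold from 403 ± 42.1 to 576 ± 17.2 (adjusted p = 2.9e-09, limma). It overlaps VRK3 on the opposite strand, which had 811 normalized reads. ZNF91, a repressor of SVA retrotransposons, rose 1.2-fold from 227 ± 20.1 to 272 ± 17.0 (adjusted p = 0.017), a call lost without control library 3 (0.12), when RBP4 library 1 was left out (0.097) and by DESeq2 (0.11); its adjusted p ran from 0.0026 to 0.12 over all alternatives tried. ZNF146 (OZF), a protein made almost wholly of fingers, had the highest level per kilobase of all members. It stood at 2564 ± 24.4 and 2433 ± 44.9 normalized reads and did not pass (adjusted p = 0.062, limma). ZNF224, known as a repressor of the glycolytic gene ALDOA, stood at 178 ± 15.7 and 172 ± 6.55 (adjusted p = 0.76), with 39.3% of its 64-base stretches shared with other genes. ZNF808, needed for the formation of the human pancreas, stood at 289 ± 12.3 and 263 ± 12.6 (adjusted p = 0.19, limma). The imprinted gene ZNF331 (4.79 ± 3.61 and 8.30 ± 3.02) and ZNF350, a partner of BRCA1 (2.08 ± 1.05 and 2.56 ± 2.03 normalized reads), were too low to be members.

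Ordered by start, the genes fell into 7 clusters of at least 5 members, parted by gaps of over 1 Mb, which held 170 members, and 16 members lay outside them. The cluster from ZNF575 to ZNF296 (43525497 to 45076588) held 16 members, of which 10 rose and none fell, with a median log2 fold change of 0.59. Its summed level was 1366 to 1422 normalized reads in the control libraries and 1678 to 1725 in the RBP4 libraries, 1.22 times as high. This is the home of ZNF226 and ZNF229. Its 10 rises and its median include ZNF229 and ZNF234, which passed the level only through the RBP4 libraries and had to differ. The cluster from ZNF101 to ZNF254 (19668796 to 24129961), which holds ZNF91, had 14 of 27 members raised and none lowered (median 0.30), and its sum went from between 6411 and 6532 to between 7479 and 7934, 1.2 times as high. Its member with the most reads per kilobase was ZNF714, at 998 ± 36.5 and 1088 ± 25.5 normalized reads (adjusted p = 0.028, limma). That call was lost in 5 of 16 alternatives: without control library 1 (0.053), control library 2 (0.13) or RBP4 library 3 (0.11), with DESeq2 (0.12) and with no filter on low values (0.057), in a range of 0.00069 to 0.13.

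Rises of at least 2-fold were found in most clusters, among them 4 of the 16 members from ZNF575 to ZNF296, where ZNF229 and ZNF234 passed the level only through the RBP4 libraries. From ZNF628 to ZNF446 (55476332 to 58481230), 29 of 50 members rose and 2 fell (median 0.35), and 9 rose at least 2-fold, including ZNF264, which passed the level only through the RBP4 libraries. From ZNF175 to ZNF331 (51571298 to 53580269), 17 of 29 rose and 2 fell (median 0.31), and 4 rose at least 2-fold, including ZNF528, which passed it in the same way. ZNF160 and ZNF347 moved in opposite directions there, with 1 gene of the name rule, ZNF415, between them, which was too low to be a member. In the cluster from ZNF565 to ZNF573 (36182060 to 37817300), 9 of 17 rose and none fell (median 0.35). The highest member per kilobase of the cluster from ZNF628 to ZNF446 was ZNF581, which rose 1.31-fold from 407 ± 54.2 to 534 ± 15.0 normalized reads (adjusted p = 6.3e-06, limma).

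Both clusters of the short arm nearest its end had smaller shares of members that passed the test as raised, 30.8% and 16.7%. Those shares were 51.6% over all members and 24.5% over all genes tested. From ZNF557 to ZNF846 (7069444 to 9793180), 4 of 13 rose and 2 fell (median 0.03), and the summed level was lower with RBP4, at 7275 to 7640 against 7696 to 8063 normalized reads. ZNF121 held the largest part of that sum, with 2952 ± 125 normalized reads in the control and 2417 ± 67.0 in the RBP4 libraries. From ZNF653 to ZNF791 (11483427 to 12640098), 3 of 18 rose (8 where every library was scaled to an equal total) and none fell (median 0.18). The log2 fold change was above 0 in 15 of these 18 members (83.3%) and in 8 of the 13 from ZNF557 to ZNF846 (61.5%), against 79.0% of all members. The median SE of these 18 members was 0.157, against 0.126 for all members. The summed level of this cluster was 2348 to 2548 in the control and 2725 to 2740 in the RBP4 libraries. Its highest member per kilobase, ZNF700, stood at 333 ± 55.3 and 330 ± 24.2 (adjusted p = 0.98, limma). ZNF428, the highest member per kilobase of the cluster from ZNF575 to ZNF296, stood at 224 ± 34.2 and 194 ± 9.73 (adjusted p = 0.11), and it passed only without control library 3 (adjusted p = 0.010). The clusters differed in level as well, with medians of 467 normalized reads from ZNF557 to ZNF846, 83.4 from ZNF653 to ZNF791 and 83.5 from ZNF575 to ZNF296. Whether the clusters differ was not tested. With a gap of 0.5 Mb in place of 1 Mb there were 8 clusters. The first then ran from ZNF414 to ZNF846, where 2 of 11 members rose and 2 fell (median 0.005), and the last was split into ZNF628 to ZNF71, where 8 of 12 rose (median 0.30), and ZNF264 to ZNF446, where 21 of 38 rose and 2 fell (median 0.45). Over 185 pairs of members next to each other, Spearman's rho of their log2 fold changes was 0.039, a description across pairs that share genes and libraries.

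**Figure D5:**
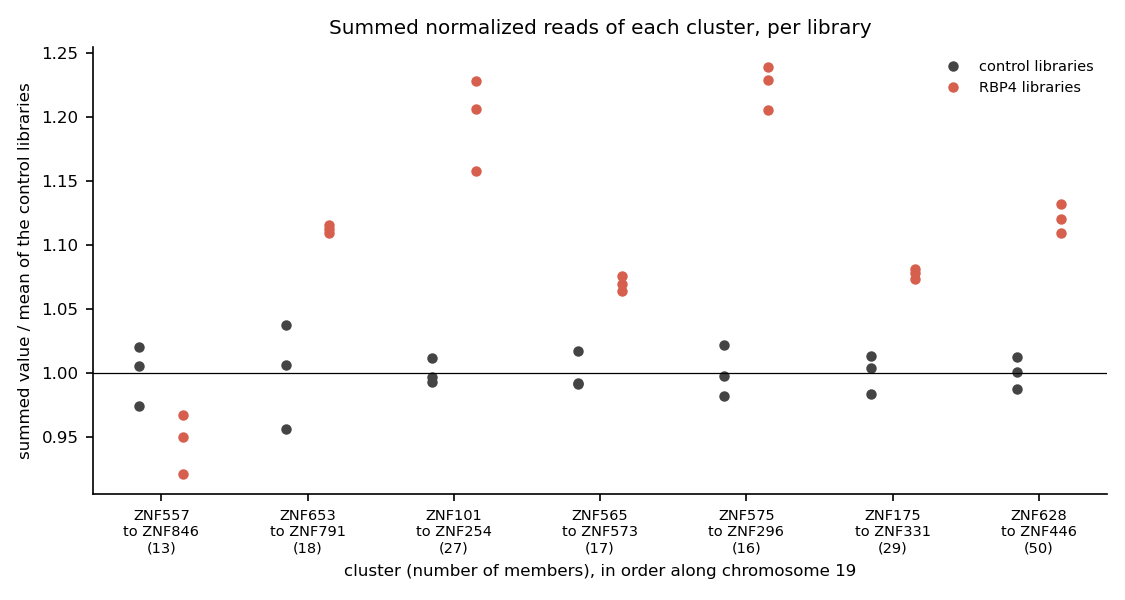
The summed normalized reads of each cluster's members in each library are divided by the mean of the 3 control libraries (y axis) and shown for the 7 clusters in order along chromosome 19 (x axis, number of members in brackets). RBP4 points (red) lie above the control points (dark) in 6 clusters and below them in the cluster from ZNF557 to ZNF846.

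Raised members were found with and without each sequence feature counted. Of the 152 members with the KRAB pattern, 79 rose and 6 fell (median log2 fold change 0.34), and of the 34 without it, 17 rose and 2 fell (median 0.19). The rho between the log2 fold change and the number of fingers was 0.13 over the 186 members. A start-site window (250 bases before to 50 after, RefSeq, GRCh38.p14, the first one listed per gene) was matched for 167 members. Their median number of CG pairs was 21, with 21 in 86 raised, 25 in 8 lowered and 20 in 73 other members, and 26 in 9691 protein-coding genes tested. The element TGATGNAA, which ATF4 and its partners of the C/EBP family can bind, was searched on both strands. It occurred in 3 member windows (1.8%), in 1.6% of the windows of protein-coding genes tested and in 3.67% of all 27305 windows. As examples of a raised and a lowered member, the 250 bases before the start are printed for ZNF528 (chr19:52397599-52397848 on the plus strand) and ZNF175 (chr19:51571033-51571282 on the plus strand), with CG pairs in capitals.
ZNF528: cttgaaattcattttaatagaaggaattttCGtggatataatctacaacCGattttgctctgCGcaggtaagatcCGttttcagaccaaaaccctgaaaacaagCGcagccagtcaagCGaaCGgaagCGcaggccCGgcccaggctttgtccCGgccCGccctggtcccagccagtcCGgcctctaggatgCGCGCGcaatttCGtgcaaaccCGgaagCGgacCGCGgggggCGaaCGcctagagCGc
ZNF175: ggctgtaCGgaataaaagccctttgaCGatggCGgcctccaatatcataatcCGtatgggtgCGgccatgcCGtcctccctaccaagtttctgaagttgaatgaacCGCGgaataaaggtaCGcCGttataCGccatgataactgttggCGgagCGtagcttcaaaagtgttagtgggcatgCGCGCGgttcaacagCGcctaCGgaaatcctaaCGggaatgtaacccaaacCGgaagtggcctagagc
ZNF528 has 23 CG pairs in its 250 bases and ZNF175 has 20, and in the whole 300-base window they have 27 and 22. ZNF528 was chosen after its values were seen.

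In a list of repression partners of KRAB proteins, which also holds general chromatin genes such as UHRF1, ATRX and DAXX, more genes fell than rose. The list covers TRIM28 and SETDB1, heterochromatin proteins, the NuRD and HUSH complexes, and DNA and histone methyltransferases. Of its 41 analysed genes, 40 were tested, of which 23 fell and 3 rose, while 14 missed the threshold. Of all genes tested, 26.1% fell and 24.5% rose. The median log2 fold change of the 40 listed genes was -0.12. Scaled to equal totals, 15 of them fell and 4 rose. TRIM28, the corepressor that the KRAB domain binds, had 10562, 9950 and 10280 normalized reads in the control libraries and 8971, 9155 and 8764 in the RBP4 libraries, a 1.15-fold fall without overlap (log2 fold change -0.20, SE 0.026, adjusted p = 1.2e-09, limma). SETDB1, which writes the repressive H3K9me3 mark, fell 1.10-fold from 1008 ± 7.88 to 912 ± 29.4 (adjusted p = 0.012, limma), and its call was lost with equal totals (0.20) and with DESeq2 (0.072). CBX5, the heterochromatin protein HP1 alpha, fell 1.28-fold from 6252 ± 174 to 4881 ± 71.7 (adjusted p = 1.8e-17, limma). KDM1A, a histone demethylase, fell 1.22-fold, DNMT3B, a DNA methyltransferase, 1.28-fold, and CHD3, a NuRD remodeller, 1.29-fold. The 3 that rose were MPHOSPH8 and FAM208A (TASOR), both of the HUSH silencing complex, and the methyltransferase EHMT2 (G9a), at 1.30-fold, 1.08-fold and 1.08-fold, named here as the whole of a small count. PPHLN1 (periphilin), also a HUSH subunit, fell (log2 fold change -0.12, adjusted p = 0.015, limma), and is named after its values were seen. With DESeq2, EHMT2 and FAM208A did not pass (adjusted p = 0.067 and 0.14). These genes lie at levels where most other changes were falls, as 41.3% of other protein-coding genes from 293 normalized reads upward fell.

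Overlap with other genes touched many members. Of the 186, 90 overlap a gene on the opposite strand, whose reads cannot be told apart in these libraries, and in 21 of them that gene had the higher mean level. Of the 96 members without such an overlap, 55 rose (57.3%) and 5 fell (median 0.35). Of the 90 with one, 41 rose (45.6%) and 3 fell (median 0.27). Of the 115 with under 5% of shared stretches, 66 rose (57.4%) and 4 fell (median 0.35). Among the 19 members with over 20% shared, 5 rose and 1, ZNF8, fell. The raised share was 51.6% over all members and 24.5% over all genes tested. Whether these sets differ was not tested. The read-through ZNF559-ZNF177, which joins neighbouring genes and shares 74.1% of its stretches, was too low to be a member.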

How the data were processed

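RNA of 3 control and 3 RBP4 libraries was sequenced after poly-A selection with a kit that does not mark the strand, per the labels' protocols. For the aligner, counter and genome build, nothing is stated in the labels or the table. The deposited gene coordinates equal GENCODE 29 (GRCh38). The authors deposited a signal per gene and library, made by dividing each library's read counts by its own size factor, with their own log2 fold changes and p-values. Every value was a whole multiple of 1 step per library (tolerance 0.01 reads), and the recovered reads were used for totals, edgeR (4.0.16) and DESeq2 (1.42.0) alternatives.

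Genes reaching 10 in 3 or more of the 6 libraries were fitted on log2(value + 1) with limma 3.58.1 (trend, robust, two-sided), with Benjamini-Hochberg adjustment over all 15676 genes and a threshold of 0.05. The fit was tested on simulated data, in which far fewer genes changed than were called here, so that run does not measure its errors in these data. Fold changes on this scale understate those of low genes, while folds written as "n-fold" are ratios of group means. Errors are SD over 3 libraries unless named SE. Replicates of a group differed beyond counting noise. Their numbers do not pair the samples.

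Clusters began where the gap between neighbouring starts exceeded 1 Mb and needed 5 members. Named genes were the 8 raised and 8 lowered members with the largest log2 fold change, groups that do not overlap and a mean of at least 50 in the higher group, the members among 8 genes with a described role (ZNF331 and ZNF350 were too low), the highest member per kilobase of each cluster, and, of the repression partners, the 4 with the smallest p-values plus TRIM28 and SETDB1. Members and lists were chosen with earlier results of these data known. Fingers, KRAB patterns and shared stretches came from GENCODE 29 coding sequences and transcripts rather than from RefSeq proteins, and identity between proteins was not analysed here. Alternatives were the pseudocount (0.5 or 5), the filter (none or 50), scaling, tool, gene set, a replicate block, leaving out each library, a cluster gap of 0.5 Mb, and members without overlaps or copies.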

Additional observations from a re-analysis of the deposited data

How the results depend on the processing

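Under 16 alternatives the members raised stayed between 69 (DESeq2) and 111 (scaling to equal totals), and those lowered between 7 and 10. Of all genes tested, 17.0% rose with DESeq2 and 30.8% with equal totals. Of the 104 members called, 76 were called in the same direction by DESeq2, 104 by edgeR, and 90 to 97 with 1 library left out. DESeq2 gave 2658 rises and 3178 falls over all genes tested, the same counts as the authors' deposited table. It is therefore not a check apart from that table. The median log2 fold change of the members was 0.275 with a filter of 50, 0.326 with edgeR, 0.383 with equal totals, 0.329 without a filter, and 0.287 to 0.343 leaving out 1 library, when 83 to 93 members rose, 7 to 10 fell and 7044 to 7521 of all genes were called. All genes called numbered 7934, and 5836 with DESeq2. Restricting the members moved the counts because fewer were left: without opposite-strand overlaps 55 rose and 5 fell, and with under 5% shared stretches 4 fell. The median was 0.296 for members at 10 or more in all 6 libraries. The last 2 restrictions were chosen after seeing the data. For the 26 named members, 398 of 416 values kept direction and call, 11 lost the call (ZNF333, ZNF91 and ZNF714), 1 gained it (ZNF428) and 6 changed sign, all of genes that were not called: ZNF224 at 0.023 with equal totals and 0.010 without control library 1, and ZNF700 at 0.064 with equal totals, 0.055 without RBP4 library 1, 0.043 without control library 2 and 0.091 without control library 3. With 1 library left out, ZNF224 ranged from -0.116 to 0.010 and ZNF700 from -0.145 to 0.091. With the replicate block, 94 members rose and 8 fell (7829 of all genes called). Deviations of same-numbered libraries correlated at 0.004, -0.008 and -0.017, and control library 1 correlated more with RBP4 library 3 (0.006) than with its own number. Depth limits members with few reads: a count of 0 allows up to 2.83 to 3.21 normalized reads.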
